A study of Mus musculus with 2 samples.

Results

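The genes described here are 10 regulators and markers of naive pluripotency: Nanog, Zfp42, Tfcp2l1, Tbx3, Gbx2, Prdm14, Sall4, Utf1, Fbxo15 and Lin28a. They were chosen as a list of gene symbols, with earlier results of these data known, and matched to the platform annotation. All 10 were found among the 19938 genes measured, each by 1 probeset assigned to that gene alone. The cells were i-OSKM-ESC, mouse embryonic stem cells of strain 129 made from the KH2 line, in which doxycycline switches on c-Myc, Klf4, Oct4 and Sox2, the last with an epitope tag. Both groups carry these 4 inducible factors and were plated on gelatin a day before treatment. The plus doxycycline cells then had the drug at 4 µg/mL for 24 hours, and the no doxycycline cells had fresh medium alone. The sources used here do not say whether the line is 1 clone, and no parental line with doxycycline was analysed here.

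Naive pluripotency is the state of the epiblast before implantation, and mouse embryonic stem cells hold it in culture through a network of transcription factors that support each other's expression. Oct4 and Sox2 bind together at many of the network's genes, while the cytokine LIF feeds in through Stat3, of which Tfcp2l1 and Gbx2 are known targets. Nanog and Sall4 are core factors, Prdm14 shields the state from FGF signalling and DNA methylation, and Zfp42 (Rex1), Utf1 and Fbxo15 are widely used markers of it. Lin28a is an RNA-binding protein that blocks the maturation of let-7 microRNAs.

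Promoter sequences are shown first because the induced factors have known recognition motifs. RefSeq start sites of assembly GRCm38.p6 gave a promoter window for 6 of the 10 genes (Nanog, Zfp42, Tfcp2l1, Gbx2, Utf1 and Lin28a), each of 250 bases before to 50 after a start. The bases before the start of 4 genes follow, 5′ to 3′ on the strand of the gene, with every match to a searched motif in capitals. Tfcp2l1 is printed for 228 bases, ending where the outermost RefSeq transcript of the gene begins. Its Klf matches begin at -61 and -47 from the start site that defines its window, which lies beyond the printed bases. The stretches are chr6:122707239-122707488 on the plus strand, chr8:43307010-43307259 on the minus strand, chr1:89931177-89931426 on the minus strand and chr1:118627695-118627922 on the plus strand.
Nanog: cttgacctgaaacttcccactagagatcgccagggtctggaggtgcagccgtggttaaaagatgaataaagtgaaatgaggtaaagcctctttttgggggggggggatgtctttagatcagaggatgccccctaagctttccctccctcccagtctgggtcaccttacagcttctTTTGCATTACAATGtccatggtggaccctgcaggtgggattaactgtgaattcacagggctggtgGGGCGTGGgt
Zfp42: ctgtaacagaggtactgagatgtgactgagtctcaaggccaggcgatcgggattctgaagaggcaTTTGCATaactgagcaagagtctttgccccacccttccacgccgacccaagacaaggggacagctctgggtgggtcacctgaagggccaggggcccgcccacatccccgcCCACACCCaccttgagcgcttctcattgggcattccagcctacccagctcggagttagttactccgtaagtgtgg
Gbx2: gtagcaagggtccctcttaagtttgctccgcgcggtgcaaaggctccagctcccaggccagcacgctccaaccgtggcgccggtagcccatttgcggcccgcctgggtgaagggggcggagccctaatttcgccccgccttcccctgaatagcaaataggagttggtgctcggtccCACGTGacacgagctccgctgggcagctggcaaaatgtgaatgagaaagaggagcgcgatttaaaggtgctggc
Tfcp2l1: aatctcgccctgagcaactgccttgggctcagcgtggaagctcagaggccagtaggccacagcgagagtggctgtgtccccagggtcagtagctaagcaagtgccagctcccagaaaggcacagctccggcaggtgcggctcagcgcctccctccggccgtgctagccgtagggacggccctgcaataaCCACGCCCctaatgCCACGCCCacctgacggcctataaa

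Motifs were searched on both strands in the whole windows, and each share below is of all 32851 RefSeq promoter windows of the same length. The windows of the 6 genes held 54.3% to 65.3% G and C bases, against a median of 52.7% over all windows. The shares are thus not matched for base content. They count windows, whereas the matches are given by gene, and Nanog has 2 windows. The octamer core TTTGCAT, read by Oct4, was found in Nanog and Zfp42 and in 4.63% of windows. The Sox element was searched as ACAATG, found in Nanog and Lin28a and in 12.6% of windows, and as ACAAAG, found in 0 of the 6 genes and in 18.7% of windows. The composite of both, TTTGCATNACAANG, which holds an octamer core and overlaps either Sox form, stood in Nanog alone of the 6 genes. It was found in 3 windows of all, of which 2 are the overlapping windows of Nanog. The Klf element GGGNGTGG was found in Nanog, Zfp42 and Tfcp2l1 (17.6% of windows). The E-box CACGTG, read by c-Myc, was found in Gbx2 (7.15%), and the Stat element TTCNNNGAA in Lin28a (8.30%). Utf1 held 0 of the 7 motifs in its window. A match is a run of letters and not a measured binding site, and distal enhancers lie outside these windows.

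**Figure D1:**
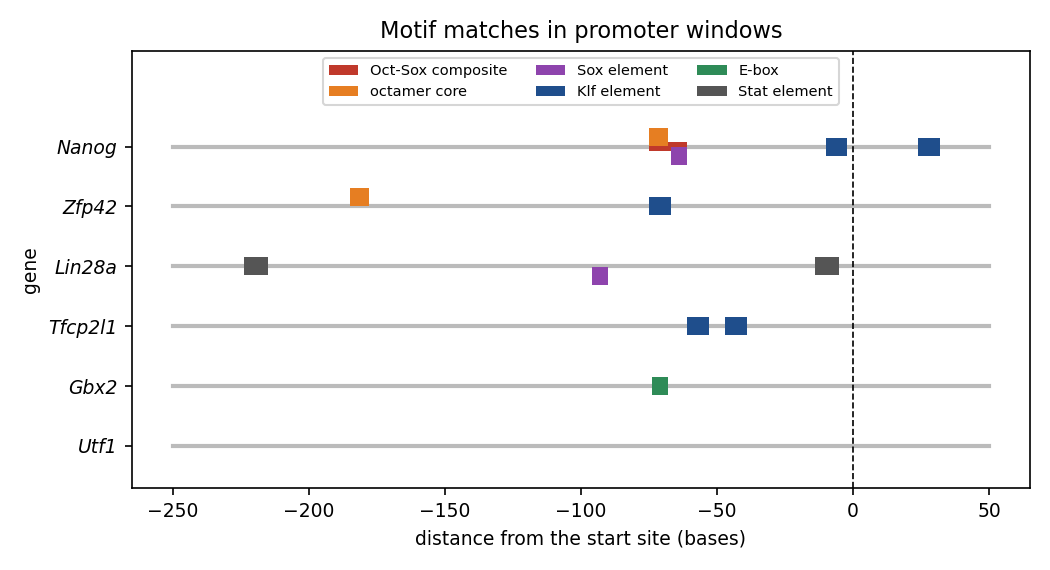
Motif matches in the promoter windows of 6 genes, by distance from the start site in bases (the first transcribed base is at 0); Nanog is drawn from the upstream of its 2 overlapping windows, and block width is the motif's length. The Nanog composite begins at -75, the Zfp42 octamer core at -185 and the Gbx2 E-box at -74, and Utf1 has no match.

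Expression was read on whole-transcript oligonucleotide arrays, 1 per condition. Without replicates, the differences below have neither an error nor a test, and their precision is limited by the number of arrays. Values are log2 RMA values, the authors' background-corrected and probe-summarised signals, and differences are plus doxycycline minus no doxycycline. The arrays had medians of 6.49 and 6.47. The expression filter asked for a value of at least 6.48, the table's median, on either array, and all 10 regulators passed it. Probes differ between genes, so levels are compared only within a gene. The induced factors do not settle the labels: Pou5f1 (Oct4), Klf4 and Myc were 1.33-fold, 1.34-fold and 1.28-fold higher in the array labelled plus doxycycline, but the value of Sox2 was lower there by 2.01-fold. Whether these probesets read the transgenes as well as the endogenous transcripts is not known here. Every direction below rests on the labels. In a culture measured in bulk, fewer cells expressing a gene and less RNA per cell cannot be told apart.

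With doxycycline, as labelled, Fbxo15 and Gbx2 were more than 2-fold lower, Utf1 and Tfcp2l1 were just short of 2-fold lower, and Nanog, Tbx3 and Lin28a were nearly level. Of the 10 regulators, 9 had a lower value with doxycycline, and the median log2 difference was -0.49. Over the 11191 genes passing the filter 55.5% were lower, and the median was -0.03. At least 2-fold lower were 2 of the 10, where 0.768% of the genes passing the filter were, and at least 2-fold higher were 0 of the 10, where 0.92% were. At 1.5-fold the count was 4 lower and 0 higher, against 3.8% and 3.24% of genes passing the filter. Because earlier results of these data were known when the genes and the lists below were chosen, these shares give a scale only.

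**Figure D2:**
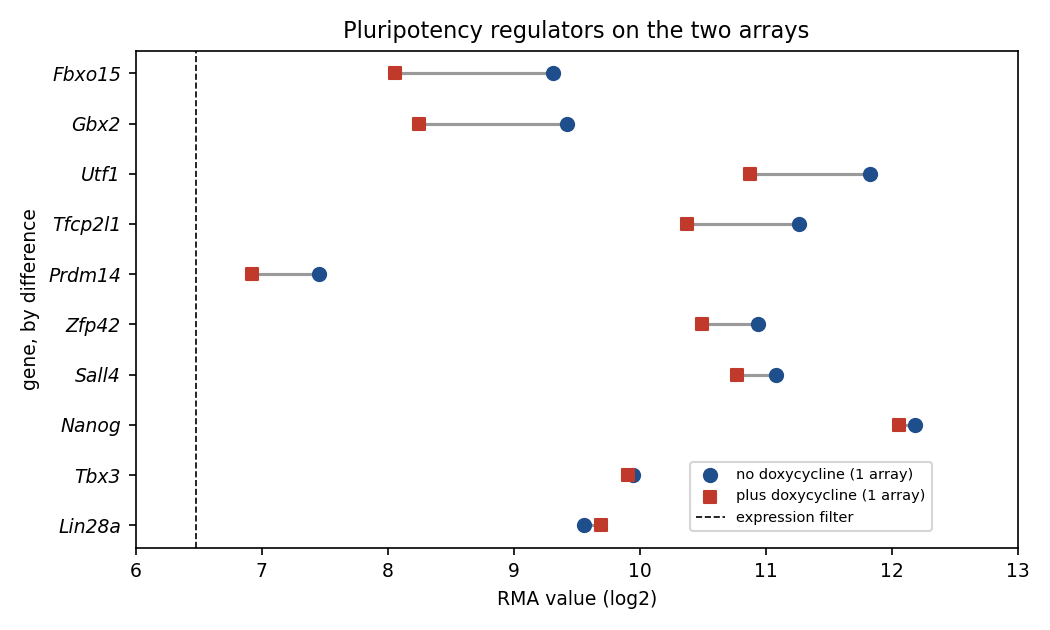
Log2 RMA value of each regulator on the array without doxycycline (blue circles) and on the array with it (red squares), 1 array each, ordered by difference, with the expression filter at 6.48 as a dashed line. The gap is widest for Fbxo15 (9.31 against 8.06), nearly closed for Tbx3 (9.95 against 9.91), and turned the other way for Lin28a alone.

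Among the transcription factors tied to LIF signalling, Gbx2, a homeobox protein that can sustain self-renewal downstream of Stat3, had a log2 value of 9.42 without doxycycline and 8.25 with it, which is 2.25-fold lower (log2 difference -1.17, probeset 10356484). Tfcp2l1, a CP2-family factor of the naive network, had 11.27 without and 10.38 with the drug, 1.85-fold lower (-0.89, probeset 10349295). Tbx3, a T-box factor that also acts downstream of self-renewal signals, had 9.95 and 9.91 (-0.04, probeset 10525016). The 3 genes thus spanned most of the range seen among the regulators. In the LIF pathway itself, Lifr, the LIF receptor, had 9.71 without and 8.99 with doxycycline (-0.72), and Stat3 had 9.89 and 9.28 (-0.61). The co-receptor Il6st differed by -0.42 and Socs3, a feedback inhibitor, by 0.08.

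Among the core and guarding factors that are regulators described here, Nanog, Sall4 and Prdm14, the differences stayed under 1.5-fold. Nanog, the homeodomain factor, had 12.18 without doxycycline and 12.06 with it, 1.09-fold lower (-0.13, probeset 10541524), and it is the gene whose promoter, printed above, holds the Oct-Sox composite. Sall4, a zinc finger factor that partners Oct4 and Nanog, had 11.08 and 10.77, 1.24-fold lower (-0.31, probeset 10490016). Prdm14 had 7.46 and 6.92, 1.45-fold lower (-0.54, probeset 10353127). Both Prdm14 values lie closer to the expression filter than those of any other regulator here, and RMA compresses the differences of dim transcripts. After adding 32 to both linear signals, its difference was -0.44.

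Among the markers, Fbxo15, an F-box gene that served as an early reporter of reprogramming, had 9.31 without doxycycline and 8.06 with it, 2.38-fold lower (-1.25, probeset 10457077). Utf1, a chromatin-associated factor of undifferentiated cells, had 11.83 and 10.87, 1.94-fold lower (-0.95, probeset 10558580). Zfp42, a zinc finger factor of the Yin Yang family, had 10.94 and 10.50, 1.36-fold lower (-0.44, probeset 10578401). The remaining gene, Lin28a, had 9.56 without and 9.70 with doxycycline, 1.10-fold higher (0.14, probeset 10517159).

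The spread of differences across genes gives a scale for these values, although it holds any response of the cells and is no error between cultures. A robust SD of the differences (from the median absolute deviation) was computed within each of 20 bins of genes with like mean expression. By this measure the regulators fell into 3 bands. Fbxo15, Gbx2, Utf1 and Tfcp2l1 differed by between 5.32 and 5.73 robust SDs of their bins. Zfp42 differed by 2.66, Sall4 by 1.88 and Prdm14 by 1.83 robust SDs, while Nanog (0.752), Lin28a (0.664) and Tbx3 (0.222) lay within 1. Of all genes passing the filter, 0.277% had a difference at or below that of Fbxo15, 0.375% at or below that of Gbx2, 0.929% at or below that of Utf1 and 1.21% at or below that of Tfcp2l1. For Zfp42 the share was 7.62% and for Nanog 35.3%.

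**Figure D3:**
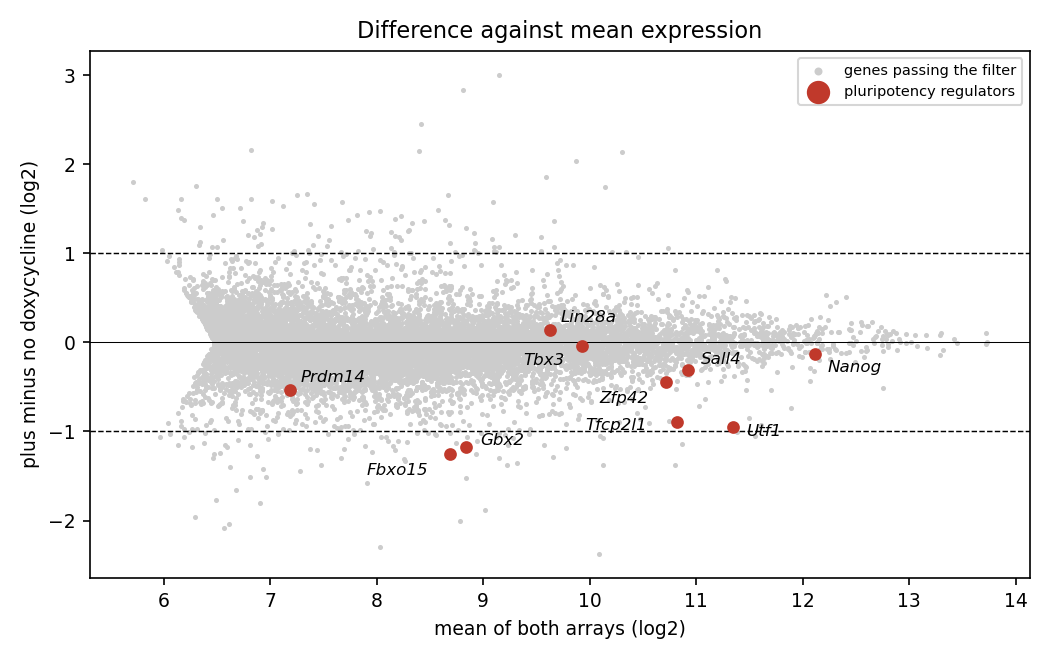
Log2 difference (plus minus no doxycycline) against mean log2 value for the 11191 genes passing the filter (grey) and the 10 regulators (red), with 2-fold marked by dashed lines. Gbx2 and Fbxo15 lie beyond the lower line, Utf1 and Tfcp2l1 near it, and Nanog, Tbx3 and Lin28a in the body of the cloud.

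Most of the regulators belong to gene families, whose other members were given the same comparison. Of 78 relatives listed 73 were measured and 49 passed the filter. Among the 49, 0 were at least 2-fold lower and 0 at least 2-fold higher, which is near the 0.768% and 0.92% of all genes passing the filter and so is no result about the families. The median difference was -0.07 over the 73 measured and -0.12 over the 49. For Fbxo15, whose protein class brings substrates to SCF ubiquitin ligases, all 36 relatives were measured, with differences from -0.76 (Fbxo36) to 0.22 and a median of -0.12. Fbxo36 had 8.27 without and 7.51 with doxycycline, and Fbxo44 had 7.24 and 6.50. The SCF subunits themselves, Skp1 (-0.09), Cul1 (-0.05) and Rbx1 (-0.14), differed little.

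Gbx1, the only relative of Gbx2 in the list, stood below the expression filter with 5.62 without and 6.03 with doxycycline. In the family of Tfcp2l1, Grhl3, a Grainyhead factor of epithelia, had 8.91 and 8.18 (-0.73), whereas Tfcp2, Ubp1, Grhl1 and Grhl2 lay between -0.14 and -0.06. Of the Spalt factors Sall1 had 9.58 and 9.21 (-0.37), Sall3 had 6.96 and 7.20 (0.23), and Sall2 stayed below the filter (-0.29). The values of Sall4 and Sall1 were lower by like amounts. Yy1, the ubiquitous relative of Zfp42, differed by -0.15. The 5 T-box relatives that passed the filter lay on both sides of Tbx3 (-0.04), with Tbx1 at 0.59, Tbx2 at 0.23, Tbx6 at 0.04, Mga at -0.20 and Eomes at -0.24. Tbx1, Tbx6 and Eomes had their lower value under the filter. The 7 PR domain relatives of Prdm14 that passed the filter ran from -0.25 (Prdm16) to 0.21 (Prdm10).

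**Figure D4:**
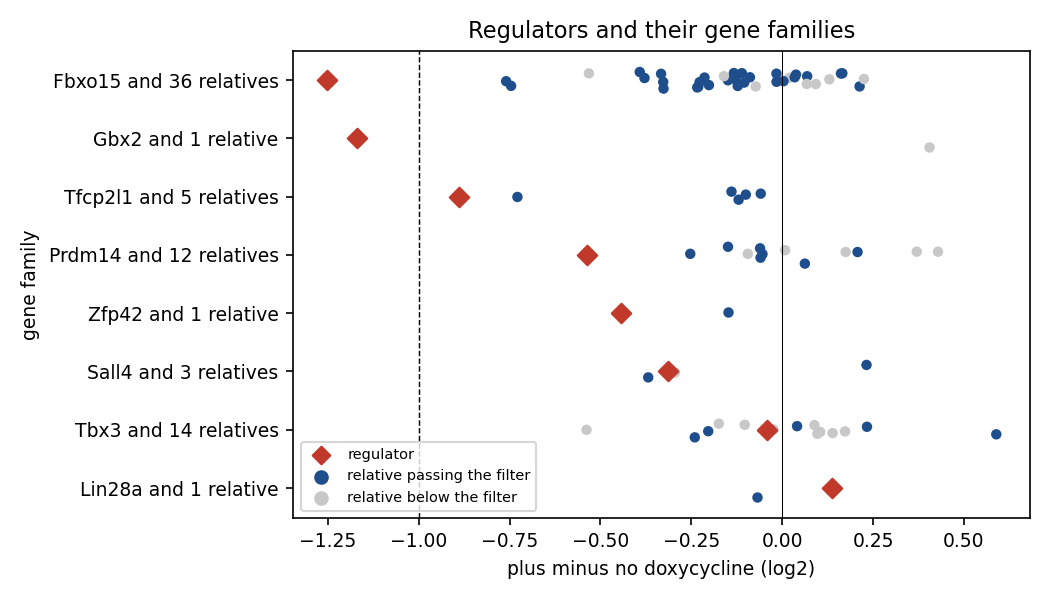
Log2 difference of each regulator (red diamonds) and of its measured relatives (blue, passing the filter; grey, below it), 1 row per family, with 2-fold lower as a dashed line. The diamonds of Fbxo15 (-1.25), Gbx2 (-1.17), Tfcp2l1 (-0.89), Prdm14 (-0.54) and Zfp42 (-0.44) lie left of all their relatives, and those of Sall4, Tbx3 and Lin28a do not.

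The other genes of the naive network differed in both directions. Of 37 listed 36 were measured and 32 passed the filter, and the median difference was -0.09 over the 36 but -0.29 over the 32. Of the 32, 4 were at least 2-fold lower and 3 at least 2-fold higher, against 0.768% and 0.92% of all genes passing the filter. The lower ones were Klf5 (11.50 without, 10.12 with doxycycline), Klf2 (8.17 and 6.79), Dppa2 (10.66 and 9.59) and Sox2. These first 3 genes encode naive Krüppel-like factors and a chromatin-priming protein. By its brightest probeset Dppa2 differed by -0.75, and Sox2 by -0.996 after adding 32 to the linear signals, both under 2-fold. At least 2-fold higher were Tcl1, a coactivator of Akt (8.70 and 9.90), and the BMP-response genes Id1 (8.66 and 10.52) and Id3 (5.75 and 7.19). The lower value of Id3 lay under the filter, and its difference of 1.44 became 1.05 after adding 32 to the linear signals. Esrrb, an orphan nuclear receptor of the naive network, differed by -0.44, the same as Zfp42 to 2 decimals, while Nr0b1 (0.24) and Nr5a2 (0.17) were slightly higher. Tdgf1, a Nodal co-receptor, differed by -0.73 and Tet2, an enzyme that oxidises methylated cytosine, by 0.64.

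**Figure D5:**
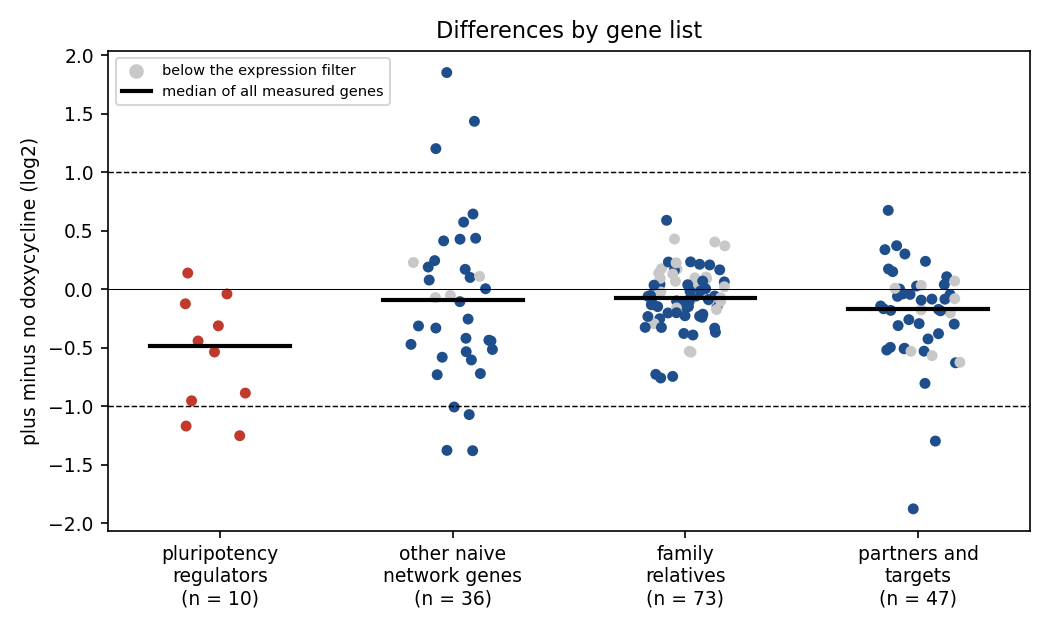
Log2 difference of every measured gene in 4 lists: the 10 regulators (red), 36 other naive network genes, 73 relatives and 47 partners and targets (blue; grey where below the filter), with each median as a black bar and 2-fold as dashed lines. The medians are -0.49, -0.09, -0.07 and -0.17, and only the network and the partner lists hold genes beyond the regulators' range at the low end.

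Genes that act with the regulators, or on which they act, formed the last list, with 47 of 51 measured, 38 passing the filter and a median of -0.17, or -0.09 after adding 32 to the linear signals. Of the 38, 2 were at least 2-fold lower and 0 at least 2-fold higher, against 0.768% and 0.92% of all genes passing the filter. Both lower genes are from the set that Prdm14 is known to repress. Dnmt3a, a de novo DNA methyltransferase, had 9.96 without and 8.08 with doxycycline, 3.68-fold lower. Its cofactor Dnmt3l had 9.80 and 8.50, 2.46-fold lower. The other genes of that set, Dnmt3b (-0.26), Fgfr1 (-0.17) and Fgfr2 (-0.50, with the lower value under the filter), also had lower values, and so did Prdm14 itself. Of the corepressors of Prdm14, Cbfa2t2 had 9.39 and 8.58 (-0.81) and Cbfa2t3 had 6.24 and 6.58 (0.34), the former of these 2 values under the filter. Among the genes of 13 proteins that partner Nanog, the largest differences were those of Zfp281 (-0.63), Tet1 (-0.53), Arid3b (-0.43) and Nacc1 (-0.38). By size of the difference alone, which is 1 number over 2 arrays, the listed genes closest to Gbx2 were Fbxo15 (-1.25) and Dppa2 (-1.07), and those closest to Fbxo15 were Dnmt3l and Otx2 (-1.30 each).

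Lin28a and its paralog Lin28b act on let-7 precursors, and Lin28b had 8.33 without and 8.26 with doxycycline (-0.07). The let-7 loci whose probesets passed the filter are shown with the seed, bases 2 to 8, in capitals, from RefSeq.
let-7d: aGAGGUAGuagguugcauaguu
let-7i: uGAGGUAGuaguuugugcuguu
The seed is the same in both. The probesets of the loci differed in opposite directions. Mirlet7d had 7.91 without and 7.39 with doxycycline (-0.52), and Mirlet7i had 6.59 and 7.26 (0.67). Of 11 let-7 loci listed 9 were measured, and the other 7 stayed below the filter. The array signal does not tell mature microRNA from its longer precursors. Among the partners of the pathway, Trim71, a ubiquitin ligase and let-7 target of early embryos, had -0.51, Dgcr8, the microprocessor subunit, -0.51, and Tut4, which uridylates let-7 precursors together with Lin28a, -0.29. Of the oncofetal let-7 targets Igf2bp3 (0.37) and Hmga2 (0.15) had higher values and Igf2bp1 (-0.30) a lower one.

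Cell type markers were read alongside. Of all 19938 genes, 11191 passed the filter, so a pass alone does not name a cell type. All 10 naive stem cell markers passed it on these arrays, and 4 of 5 primed epiblast markers did. Of the trophectoderm markers 5 of 8 passed, including Krt18, Tfap2c and Eomes, while Cdx2, Elf5 and Gata3 stood below the filter on both arrays. Of the fibroblast and feeder markers 7 of 10 passed, including Fn1, Vim and Col1a1, while Lum, Dcn and Postn did not. All 8 primitive endoderm markers passed. The fibroblast and feeder list had a median difference of 0.26 over 10 genes, 7 of them positive. The 3 negative genes were Fn1 (-0.33), Vim (-0.10) and Col3a1 (-0.07). The primitive endoderm list had a median of -0.21 over 8 genes, and differences between -0.44 and 0.24. In the trophectoderm list Krt8, a simple-epithelium keratin, was 3.36-fold higher, while Krt18 differed by 0.08 and Tfap2c by -0.83. That list had a median of -0.0047, with 4 genes negative and 4 positive. The part of any such cells in the regulators' differences was not tested.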

How the data were processed

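The authors' deposited log2 values cover 35556 probesets on each array. They were made with RMA in Affymetrix Expression Console, per the submitters' processing notes. The sources used here give no software version or genome build, and the log2 scale was read from the range of the values (2.49 to 14.2). Because RMA equalises the arrays, a shift of most genes together would not show. Labels put 1 array in each group, so no test was made. A gene's value is the mean of the 21789 probesets assigned to exactly 1 gene. Genes were called at 2-fold when the higher value reached 6.48. The code was run on simulated data with planted changes well above and well below 2-fold. Changes near 2-fold were not simulated, so the run says nothing on calls near that threshold.

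Members and lists were chosen with earlier results of these data known. The text names all 10 members, the closest relatives, the members of each list called at 2-fold and up to 4 genes of each list with the largest differences among those passing the filter. Genes named for contrast, such as Fgfr1, Hmga2, Igf2bp1, Igf2bp3, Socs3, Tbx6, Ubp1 and Tut4, were chosen after their values were seen. Sequences are RefSeq's, GRCm38.p6, matched by symbol. Alternatives were the brightest probeset, a loess trend removed (span 0.3), quantile normalization, an offset of 32, other filters and a 1.5-fold threshold. The tools were NumPy 2.4.6, statsmodels 0.14.6, pandas 2.3.3 and matplotlib 3.10.9 under Python 3.11.15.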

Additional observations from a re-analysis of the deposited data

How the results depend on the processing

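The 10 regulators kept the direction of their differences under the brightest probeset, the loess trend removed, quantile normalization and the offset of 32. The brightest probeset could not change them, because each regulator has 1 probeset. Over these settings Gbx2 ran from -1.17 to -1.09, Fbxo15 from -1.25 to -1.16, Utf1 from -0.97 to -0.94, Tfcp2l1 from -0.90 to -0.87, Nanog from -0.16 to -0.12 and Lin28a from 0.13 to 0.18. The count at least 2-fold lower was 2 under each of them and with no filter or a filter at the 75th percentile (8.25), and it was 4 at 1.5-fold. Removing the filter could not change the count, because all 10 regulators passed it. The median of the regulators ran from -0.49 to -0.44. No paired analysis was possible because each group has 1 array. A difference between cultures cannot be told from one of the drug.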

Other observations

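Prdm14 also has a role in founding primordial germ cells, and a list of 6 germ cell markers was read beside it. Of these, 5 passed the expression filter. A 2-fold difference was seen in 0 of the 5, which is near the share over all genes passing the filter (0.768% lower, 0.92% higher). Dazl, an RNA-binding protein of germ cells, had a log2 value of 6.61 without and 5.72 with doxycycline (-0.88). The lower value of Dazl lay under the filter and the other just above it. Tfap2c, a factor shared by trophectoderm and germ cells, had 8.18 and 7.35 (-0.83), and Ddx4, a germ cell helicase, had 9.07 and 8.74 (-0.33). Prdm1, the partner of Prdm14 in germ cell founding, had 6.71 and 6.56 (-0.15), and Dppa3 stayed below the filter. Nanos3 had 6.75 and 6.81 (0.06). The median of the 6 was -0.24, with 5 genes negative and 1 positive.

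Among the primed epiblast markers Otx2, a homeobox factor of the later epiblast, had 7.11 without and 5.81 with doxycycline, 2.47-fold lower. That is a difference of -1.30, or -0.95 with the offset of 32, and the lower value of Otx2 lay under the filter. Zic2 had 6.95 and 6.40 (-0.55), with its lower value also under the filter. Pou3f1 differed by 0.01, and Fgf5 stayed below the filter on both arrays. Lineage genes that Nanog or Sall4 are known to hold down differed by 0.24 (Gata4), -0.18 (Gata6) and -0.18 (Sox17), and Cdx2 and Pax6 stayed below the filter.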
